A study of Gallus gallus with 3 samples.

Results

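Granulosa cells of the hen's ovarian follicle were compared at 3 stages for 10 genes that bind, release, store or make fatty acids. These are the fatty acid-binding proteins FABP4 and FABP5, the scavenger receptor CD36, the lipases CEL and LPL, the nuclear receptor PPARG, the lipid droplet protein PLIN2, and the lipogenic enzymes FASN, SCD and ACACA. They are 10 of 19309 genes with a value. The genes were found by symbol and were chosen by their levels in these same libraries, in particular by the high values of CEL, FABP4 and FABP5 in F5 follicles, so the levels below are descriptions and carry no test. PPARG was identified through the KEGG column, since its name column reads only PPAR.

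The material was freshly isolated granulosa cells of Gallus gallus, without treatment, in 3 groups of 1 library each. The first came from follicles of 6 mm in diameter, before selection into the preovulatory hierarchy, from hens labelled 10 to 15 months old. The second came from F5 follicles, which have entered the hierarchy and grow fast, from hens labelled 10 to 16 months old. The third came from F1 follicles, the next to ovulate, from hens labelled 10 to 17 months old. The labels do not say how many hens or follicles made up a library. Values are FPKM, reads scaled to the length of the gene and to the total reads of the library. Library totals were derived from the FPKM values as the smallest whole numbers that fit. They were 14923359 reads in 6 mm, 14137511 in F5 and 14086626 in F1. With 1 library per stage no difference could be checked against replicates, and bracketed ranges are exact 95% intervals of counting error alone.

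Fatty acids reach cells as lipoprotein triglycerides, which lipases at the cell surface hydrolyse, or bound to albumin. Inside the cell, small binding proteins carry them to membranes, lipid droplets, peroxisomes, mitochondria or the nucleus. PPARG is a receptor for fatty acid derivatives that pairs with a retinoid X receptor, and in adipocytes and macrophages of mammals FABP4, CD36, LPL and PLIN2 are among its known targets. In the growing follicle of the hen, yolk lipoproteins made in the liver pass between the granulosa cells to the oocyte, and the granulosa cells become producers of progesterone as the follicle matures.

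The libraries held granulosa transcripts at all stages. FOXL2, a transcription factor of granulosa cells, was at 675, 967 and 1646 in 6 mm, F5 and F1, and 12 of 12 granulosa markers had reads in all 3 libraries. From 6 mm to F5, 9 of 12 were at least 2-fold higher and 1 lower, against 7.64% and 10.8% of all genes. From F5 to F1 the markers differed in direction, with 4 of 12 higher and 4 lower, against 5.09% and 22.9%. Between F1 and 6 mm, 8 were higher and 3 lower, against 7.45% and 32.8%. Markers of other cells were also present, and in each list 6 mm had the most markers at an FPKM of at least 1. The 11 markers of theca and smooth muscle had summed FPKM values of 774, 21.8 and 17.6 along the stages. Sums of adipocyte, red blood cell, oocyte and surface epithelium markers were likewise highest in 6 mm and lowest in F1. Those of oocyte were 240, 47.3 and 1.04, and those of surface epithelium 237, 29.3 and 6.69. Endothelium and leukocytes had another order, at 140, 74.7 and 141 and at 133, 48.9 and 135. In F1, CLDN5 alone gave 108 of the endothelial sum and CD74 alone 133 of the leukocyte sum. Since the material is bulk RNA, fewer cells of a type and less RNA per cell cannot be told apart.

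CEL, FABP4, FABP5 and PPARG were highest in F5, while LPL and SCD were lowest there. CD36 was low at every stage and lowest in F1, and PLIN2, FASN and ACACA differed little. By the difference of log2(FPKM + 1), which understates the change of low genes, 4 of 10 genes exceeded their 6 mm level at least 2-fold in F5 and 1 was lower. Among all 12611 genes that reached an FPKM of 1 in either library, 7.64% were higher and 10.8% lower. From F5 to F1, 2 of 9 measured genes were higher and 4 lower, against 5.09% and 22.9% of 11758 genes. CD36 was below an FPKM of 1 in both of those libraries and is the gene not counted. Between F1 and 6 mm, 3 of 10 were higher and 2 lower, against 7.45% and 32.8% of 12482 genes. The genes were selected on these contrasts, so nothing is read from those counts.

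**Figure D1:**
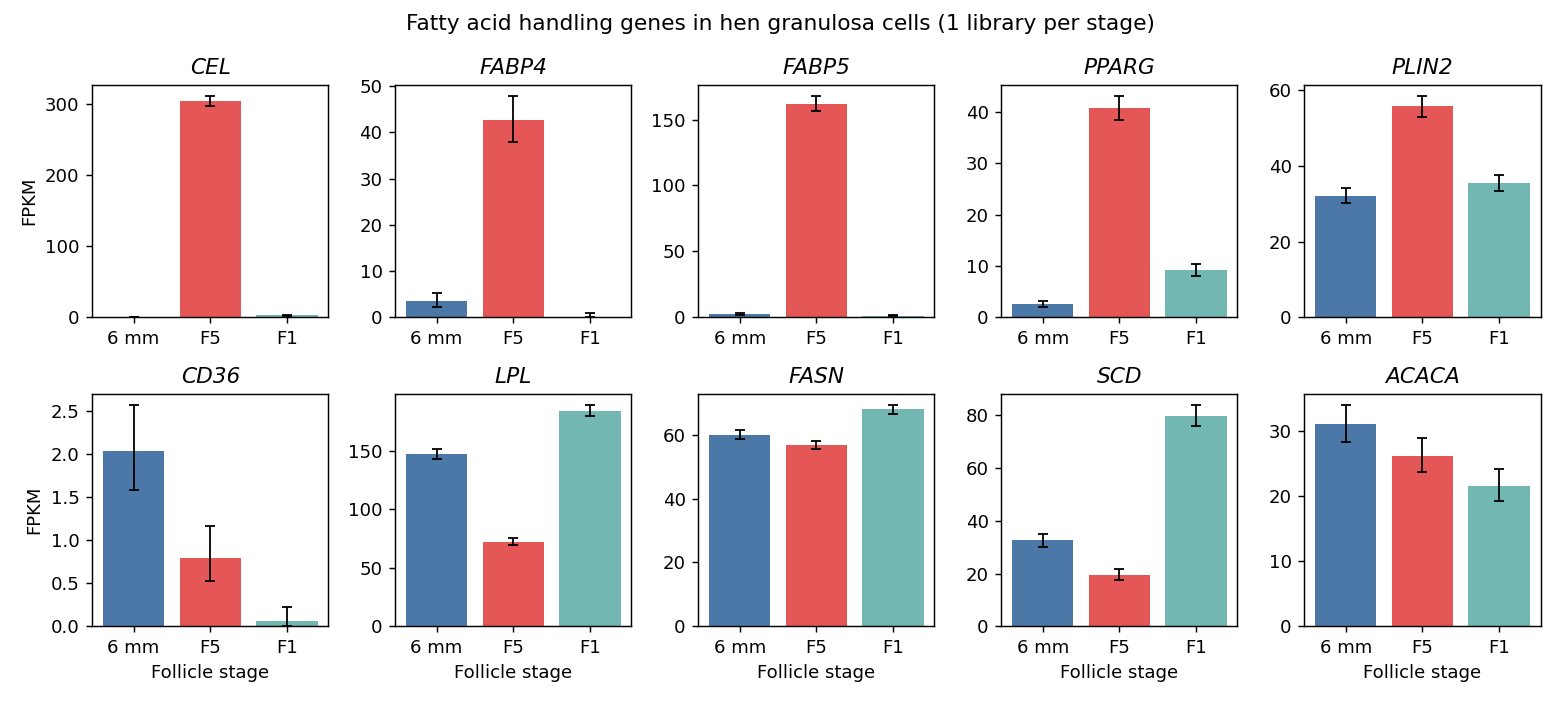
FPKM of the 10 genes (vertical axis, linear, each panel with its own scale) in the 6 mm, F5 and F1 libraries; bars are single libraries and error bars exact 95% counting intervals. CEL reached 305, FABP5 162 and FABP4 42.6 in F5, with values of at most 3.54 in the other libraries, while LPL and SCD had their lowest bars in F5.

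The 2 binding proteins lie in 1 gene cluster and had the same order of stages. FABP5, the epidermal form that carries long-chain fatty acids, had FPKM values of 2.52 in 6 mm, 162 in F5 and only 1.09 in F1. F5 was therefore the only high library, 64.2-fold above 6 mm (48.5 to 87.0) and 149-fold above F1 (96.0 to 244), and F1 was 2.31-fold below 6 mm (1.35 to 4.11). FABP4, the adipocyte and macrophage form, was at 3.54 in 6 mm, 42.6 in F5 and 0.150 in F1. It stood 12.03-fold above 6 mm (7.99 to 18.9) and 284-fold above F1 (50.6 to 11255). The F1 value, 23.6-fold below 6 mm (3.86 to 969), rested on 1 read, so its intervals are wide. In 6 mm the ratio of FABP5 to FABP4 was 0.712, but the counting intervals of FABP4 (2.29 to 5.23) and FABP5 (1.87 to 3.33) overlapped. In F5 FABP5 was the more abundant of the pair, with a ratio of 3.80.

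FABP5 lies on chromosome 2, plus strand, 121148557 to 121153615, and FABP4 on the minus strand at 121225723 to 121228944, in coordinates as the files give them (the sources used here name no genome build). Another member of the family, annotated PMP2, the myelin fatty acid-binding protein, sits between them and was listed at 0 in all 3 libraries. The flanking genes varied. MRPL53, a mitochondrial ribosomal protein 5255 bases before FABP5, was at 3.68 in 6 mm, 2.83 in F5 and 1.28 in F1. IMPA1, an inositol monophosphatase 33434 bases beyond FABP4, was at 7.76, 4.98 and 3.43. Beyond it, ZFAND1 was at 7.61, 5.80 and 2.37, and CHMP4C, an ESCRT subunit, at 3.05, 2.35 and 2.02. On the other side PAG1, a membrane adaptor of Src family kinases, was at 27.5, 34.7 and 1.89, with a large step down into F1. The unnamed Novel00630 was at 0.300, 2.58 and 0, so that it had the same order of stages as FABP4 and FABP5 at a far lower level. Within this stretch of the chromosome the differences above 10-fold between F5 and 6 mm were therefore those of the 2 binding proteins.

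**Figure D2:**
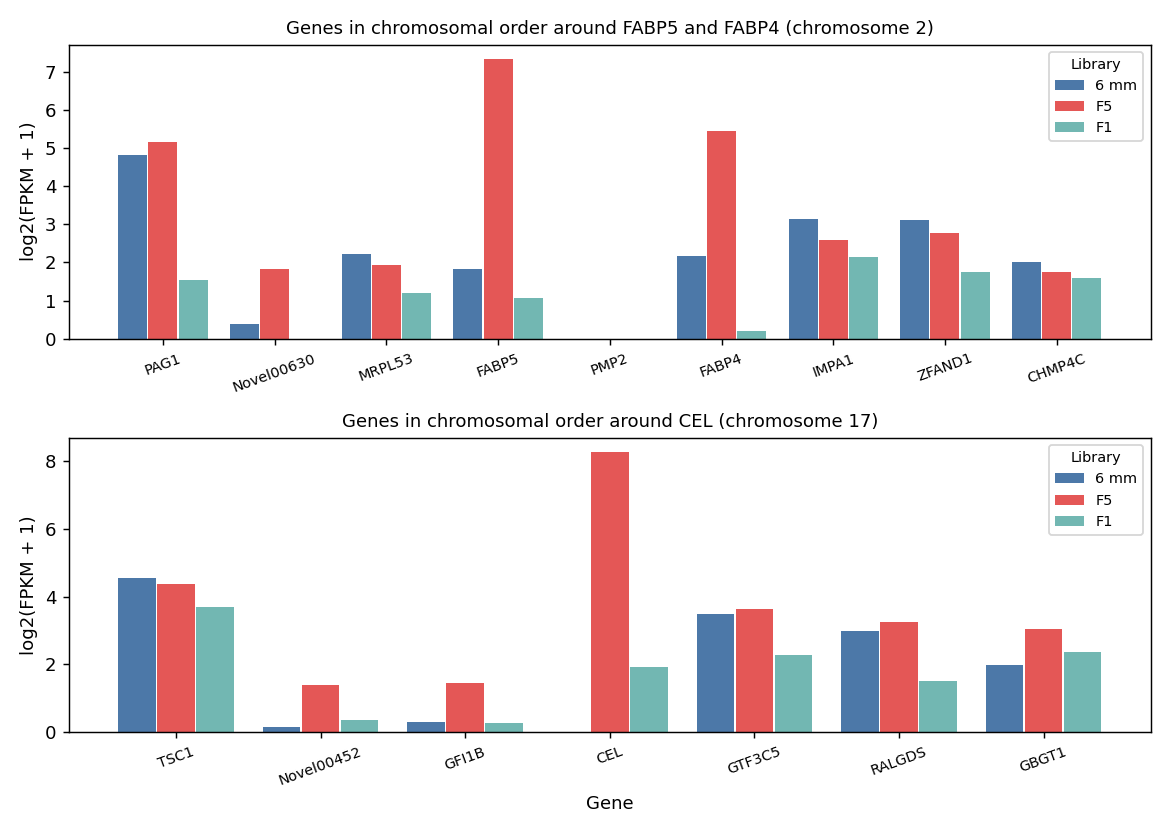
Level as log2(FPKM + 1) (vertical axis) of genes in chromosomal order around FABP5 and FABP4 (upper panel) and around CEL (lower panel), with 1 bar per library. The F5 bars of FABP5, FABP4 and CEL stand above those of their neighbours, and PMP2, between the binding proteins, has no bar because it was listed at 0 in each library.

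Of the other measured members of the binding protein family, only FABP6 was higher in F5 than in 6 mm. The files' InterPro text names the cytosolic fatty acid-binding family for 15 genes, of which 7 reached an FPKM of 1 in any library. FABP4 and FABP5 were the 2 of these 7 with F5 at least 2-fold above both neighbours. They were chosen for their F5 levels, so nothing is read from that count (3.21% of all 12812 genes). FABP3, the heart form, was at 18.4 in 6 mm, 3.18 in F5 and 0.213 in F1. FABP7, the brain form, was at 18.1, 5.05 and 0.0993, the last from 1 read. FABP6, known in mammals as the ileal bile acid carrier, was the exception, at 10.3, 21.5 and 23.8. The sum of FABP4 and FABP5 was 6.06 in 6 mm, below FABP3 or FABP7 alone, 205 in F5 and 1.24 in F1. In the list of other binding and transport proteins, 0 of 9 measured members were at least 2-fold higher in F5 than in 6 mm and 2 were lower (median -0.23, all genes -0.13). Over all genes 7.64% were higher and 10.8% lower. From F5 to F1 the list had 0 of 8 higher and 4 lower (median -1.14, all genes -0.53), among them ACBD5, a peroxisomal acyl-CoA-binding protein, at 10.3 in F5 and 3.55 in F1. Over all genes 5.09% were higher and 22.9% lower in that step.

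CEL, the bile salt-activated lipase known as a secreted enzyme of the mammalian pancreas that hydrolyses cholesteryl esters and triglycerides, had no reads in 6 mm but FPKM values of 305 in F5 and 2.82 in F1. These values rest on at least 7596 reads in F5 and 70 in F1. It ranked 216th of all genes in F5 and 8335th in F1. With the floor of 3 reads that a count of 0 allows, an FPKM of 0.114, F5 was at least 2673-fold higher than 6 mm, and F1 at least 24.7-fold higher. F1 was 108-fold below F5 (85.5 to 139). CEL lies on chromosome 17, plus strand, 6773214 to 6778591, and no other annotated gene overlaps it. The next gene, GTF3C5, starts 1917 bases beyond its end and was at 10.2, 11.4 and 3.81. Upstream, GFI1B, a transcriptional repressor known from blood cells, was at 0.242, 1.73 and 0.205, so that F5 was its highest library at a far lower level.

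Some carboxylesterases related to CEL also had their highest level in F5. This family was read from the InterPro text after the values had been seen. Of 14 genes annotated as type B carboxylesterases, 8 reached an FPKM of 1 in any library, and 5 of these, CEL among them, were at least 2-fold higher in F5 than in both other libraries. Among all 12812 genes at that level the share was 3.21% (411 genes). Nothing is read from that contrast, since CEL was chosen for its F5 level and NLGN3 reached an FPKM of 1 in F5 alone. A gene on chromosome 9 that the KEGG column names AADACL2, an arylacetamide deacetylase-like enzyme, was at 2.04 in 6 mm, 99.3 in F5 and 13.5 in F1. CES1, a liver-type carboxylesterase, was at 4.83, 17.2 and 3.83, and the synaptic adhesion protein NLGN3 at 0.318, 5.07 and 0.0307. NCEH1, a neutral cholesteryl ester hydrolase, was the exception with its highest level in F1, at 46.6, 50.2 and 142.

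LPL, lipoprotein lipase, which releases fatty acids from circulating lipoproteins, was lowest in the library where CEL was highest. Its FPKM was 147 in 6 mm, 72.1 in F5 and 184 in F1, so that F5 was the lowest library. F5 was 2.04-fold below 6 mm (1.94 to 2.14) and 2.56-fold below F1 (2.44 to 2.68), while F1 was 1.25-fold above 6 mm (1.21 to 1.30). The difference of F1 to 6 mm depended on scaling. On the log2 scale it was 0.32 as deposited, 0.008 after scaling to a common sum and 1.06 after median-ratio scaling. A value in F5 at least 2-fold below both neighbours was found for 81 of 12812 genes (0.632%), and LPL ranked 79th by the depth of that trough. LPL therefore lies just inside the 2-fold line, and its step from 6 mm to F5 fell short of it at -0.89 when the libraries were scaled by their median ratio. LPL was the most abundant of the 10 genes in 6 mm and F1, whereas in F5 CEL exceeded it 4.23 times.

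The other lipases differed in direction. LIPG, endothelial lipase, which acts mainly on phospholipids of high-density lipoprotein, was at 97.0 in 6 mm, 58.7 in F5 and 3.62 in F1, 16.2-fold lower in F1 than in F5 (13.8 to 19.2). MGLL, monoglyceride lipase, which completes the breakdown of stored fat, was at 11.8, 88.7 and 106, 7.54-fold higher in F5 than in 6 mm (7.03 to 8.10). ANGPTL4, a secreted inhibitor of LPL, was 8.33-fold lower in F5 than in 6 mm (7.38 to 9.43), at 58.2, 6.99 and 7.25. The gene G0S2, which inhibits the lipase of lipid droplets, was at 16.7, 3.54 and 8.53. Both inhibitors were also lower in F1 than in 6 mm, and their bearing on the lipases was not tested. Over the list of lipases and cofactors, 4 of 24 measured members were at least 2-fold higher in F5 than in 6 mm and 4 lower (median -0.06). From F5 to F1, 2 of 24 were higher and 4 lower (median -0.09, all genes -0.53). Over all genes 7.64% were higher and 10.8% lower in the first step, and 5.09% and 22.9% in the second.

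CD36, which takes up long-chain fatty acids and oxidised lipoproteins, was barely present. Its FPKM was 2.03 in 6 mm, 0.796 in F5 and 0.0614 in F1, from 70, 26 and 2 reads. F5 was 2.55-fold below 6 mm (1.61 to 4.17), and F1 was 13.0-fold below F5 (3.24 to 113) and 33.0-fold below 6 mm (8.81 to 278). On the log2(FPKM + 1) scale the step from 6 mm to F5 was only -0.75. Some markers of cells that are known to express CD36 were lower along with it. The macrophage markers C1QA and C1QB were at 3.17 and 4.52 in 6 mm and had no reads in F5 or F1, and CSF1R was at 5.22, 0.585 and 0.0203. Of the endothelial markers, CDH5 was at 1.69, 0.0468 and 0.0313, with 3 of 13 markers at 0 in F5 and 4 in F1. In F5 against 6 mm, 0 of 9 measured leukocyte markers were at least 2-fold higher and 8 lower. For endothelium it was 0 and 5 of 9. From F5 to F1, 1 was higher and 1 lower, both of 3 leukocyte and of 5 endothelial markers. Over all genes 7.64% were higher and 10.8% lower in the first step, and 5.09% and 22.9% in the second. The sum over all 12 leukocyte markers was 133 in 6 mm, 48.9 in F5 and 135 in F1, of which CD74 alone gave 133 in F1. The sum over all 13 endothelial markers was 140, 74.7 and 141, of which CLDN5 gave 108 in F1. The part of such cells in the CD36 values was not tested.

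Adipocytes and macrophages also express FABP4 and PPARG in mammals. ADIPOQ, adiponectin, was at 2.35 in 6 mm, 0.289 in F5 and 0.0829 in F1, while PLIN1, the adipocyte perilipin, was highest in F5 at a low level, at 0.803, 1.14 and 0.458. The 6 adipocyte markers summed to 31.7, 14.6 and 6.27, with CIDEC, a lipid droplet protein, the most abundant at 21.2, 11.5 and 3.74. The part of such cells in the FABP4 and PPARG values was not tested.

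Transcripts of the other measured genes of fatty acid uptake and activation differed by less than 2-fold between 6 mm and F5. Of 12 measured genes 0 were at least 2-fold higher and 0 lower (median 0.08, all genes -0.13). Over all genes 7.64% were higher and 10.8% lower, so nothing is read from that count. SLC27A4, a transport protein with acyl-CoA synthetase activity, was at 47.8 in 6 mm, 71.9 in F5 and 36.7 in F1. ACSS3, an acyl-CoA synthetase of short-chain substrates, was at 12.8, 17.6 and 9.39. SCARB1, the receptor through which cells take cholesteryl esters from high-density lipoprotein, was higher in F1 only, at 7.58, 7.37 and 24.2 (3.28-fold above F5, 2.79 to 3.87). SCARB2, its lysosomal relative, went down along the stages at 45.7, 32.6 and 16.4. From F5 to F1, 3 of 14 genes of the list were higher and 0 lower (median -0.14, all genes -0.53), against 5.09% and 22.9% of all genes. Besides SCARB1 these were ACSL6, at 0.0584, 0 and 7.24, and ACSS1, at 0.686, 0.290 and 7.89. ACSL6 and ACSS1 were named after their values were seen.

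PPARG lies on chromosome 12, plus strand, 4857558 to 4878220. Its FPKM was 2.50 in 6 mm, 40.8 in F5 and 9.14 in F1, so that F5 was highest and F1 intermediate. F5 was 16.3-fold above 6 mm (13.0 to 20.8) and 4.46-fold above F1 (3.91 to 5.11), and F1 stayed 3.65-fold above 6 mm (2.83 to 4.76), unlike FABP4 and FABP5, which were lower in F1 than in 6 mm. The sister receptor PPARD was at 17.5, 27.1 and 24.7 and PPARA at 0.984, 0.536 and 5.01, so that each of the 3 receptors had its highest library at F5 or F1. In 6 mm and F1 PPARD was more abundant than PPARG, and in F5 PPARG was. RXRA, one of the retinoid X receptors that pair with PPARG, was at 39.1, 23.6 and 8.36, with F1 lowest. These 3 genes were named after their values were seen, because of their known relation to PPARG.

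Of 18 measured receptors and cofactors, 2 were at least 2-fold higher in F5 than in 6 mm and 0 lower (median 0.03). Over all genes 7.64% were higher and 10.8% lower, so nothing is read from that count. The 2 were PRDM16 and PPARGC1B. PRDM16, a transcriptional regulator that works with PPARG in brown adipocytes of mice, was at 1.02 in 6 mm, 24.3 in F5 and 0.586 in F1, 23.9-fold above 6 mm (19.9 to 28.8) and 41.4-fold above F1 (32.5 to 53.5). PPARGC1B, a coactivator of nuclear receptors that promotes mitochondrial oxidation, was at 0.630, 11.7 and 2.05, with F5 18.6-fold above 6 mm (12.5 to 28.7) and 5.69-fold above F1 (4.48 to 7.31). CEBPB, which precedes PPARG in fat cell differentiation, was at 35.7, 19.5 and 1.87. NRIP1, a corepressor of nuclear receptors, was highest in F1 at 7.55, 6.57 and 19.1. From F5 to F1, 2 of 19 members were higher and 5 lower (median -0.53, all genes -0.53), against 5.09% and 22.9% of all genes.

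PLIN2, which coats lipid droplets in most cells that store lipid, was at 32.2 in 6 mm, 55.7 in F5 and 35.4 in F1. F5 was thus the highest library, but only 1.73-fold above 6 mm (1.60 to 1.88) and 1.57-fold above F1 (1.45 to 1.70). The interval of F1 against 6 mm came close to no difference (1.10-fold above, 1.01 to 1.20, and lower at -0.17 after scaling to a common sum). Its relative PLIN3 was at 28.6, 11.7 and 3.26, below PLIN2 at every stage. An unnamed gene annotated as a perilipin was above PLIN2 in 6 mm only, at 50.3, 23.8 and 17.8. Of 17 measured genes of triglyceride synthesis and lipid droplets, 0 were higher in F5 than in 6 mm by 2-fold or more. In that step 4 were lower (median -0.43, all genes -0.13). In F1 against F5, 1 was higher and 9 of 17 lower (median -1.03, all genes -0.53). Over all genes 7.64% were higher and 10.8% lower in the first step, and 5.09% and 22.9% in the second. DGAT2, which makes triglyceride from diglyceride, was at 27.7, 14.5 and 2.36. The acyltransferases GPAT2 and AGPAT4 were at 21.8, 8.34 and 0.742 and at 27.6, 9.36 and 2.15. SOAT1, which makes cholesteryl esters, was named after its values were seen and had the opposite order, at 93.0, 172 and 249.

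The lipogenic enzymes FASN, SCD and ACACA did not share the F5 maximum. FASN, fatty acid synthase, differed least between 6 mm and F5 of the 10 genes as deposited, at 60.1 in 6 mm, 56.8 in F5 and 67.9 in F1, with F5 1.06-fold below 6 mm (1.03 to 1.09), a direction that turned under median-ratio scaling (0.04), and F1 1.20-fold above F5 (1.16 to 1.23). That step into F1 grew from 0.25 to 0.86 on the log2 scale with median-ratio scaling and to 0.64 with upper-quartile scaling. SCD, the desaturase that makes monounsaturated fatty acids, was at 32.6, 19.6 and 79.9. F5 was its lowest library, and F1 was 4.08-fold above F5 (3.65 to 4.57) and 2.45-fold above 6 mm (2.24 to 2.68). ACACA, acetyl-CoA carboxylase 1, which makes the malonyl-CoA used for synthesis, was at 31.1, 26.2 and 21.6, with F1 1.44-fold below 6 mm (1.25 to 1.66) as deposited and above it after median-ratio scaling (0.21). Together these 3 genes summed to 124 in 6 mm, 103 in F5 and 169 in F1, while CEL, FABP4 and FABP5 summed to 6.06, 509 and 4.06.

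A second entry named ACACA, a fragment on an unplaced scaffold, behaved differently, at 2.47 in 6 mm, 12.4 in F5 and 0.871 in F1. F5 was 5.01-fold above 6 mm (2.66 to 10.3) and 14.2-fold above F1 (5.25 to 53.9). ACACB, the mitochondrial acetyl-CoA carboxylase whose malonyl-CoA restrains fatty acid oxidation, was at 9.54, 59.1 and 5.16, with F5 6.20-fold above 6 mm (5.80 to 6.63) and 11.5-fold above F1 (10.5 to 12.6). Which gene the fragment belongs to is uncertain from the files. With both ACACA entries summed, F5 came to lie above 6 mm by 0.20 instead of below it by -0.24.

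In the list of fatty acid synthesis, elongation and desaturation, 3 of 23 genes were higher in F5 than in 6 mm by 2-fold or more and 2 lower (median -0.30). In F1 against F5, 6 of 23 were higher and 2 lower (median -0.07, all genes -0.53). Over all genes 7.64% were higher and 10.8% lower in the first step, and 5.09% and 22.9% in the second. SLC25A1, which exports the citrate from which fatty acids are built, was at 27.9, 147 and 106. The desaturases of the list differed in order. FADS2, which starts the synthesis of polyunsaturated fatty acids, was at 8.87, 4.27 and 22.9, lowest in F5 like SCD, and FADS6 at 2.28, 2.18 and 30.4. FADS1, which acts after FADS2 in that pathway, and SCD5, a relative of SCD, were named after their values were seen and were highest in 6 mm as deposited, at 5.42, 3.25 and 3.04 and at 22.9, 10.04 and 2.42. ACLY, which turns citrate into acetyl-CoA, and SREBF1, the transcription factor of lipogenic genes, were named after their values were seen and were likewise highest in F1, at 69.2, 67.6 and 265 and at 14.3, 25.3 and 64.5.

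Among genes of fatty acid oxidation, 7 of 29 were at least 2-fold higher in F5 than in 6 mm and 1 was lower (median 0.16, all genes -0.13), and the median turned to -0.03 after scaling to a common sum. From F5 to F1, 0 were higher and 12 of 29 lower (median -0.86, all genes -0.53). Over all genes 7.64% were higher and 10.8% lower in the first step, and 5.09% and 22.9% in the second. EHHADH, the bifunctional peroxisomal enzyme, was at 2.17 in 6 mm, 16.2 in F5 and 6.89 in F1, and F5 was 7.44-fold above 6 mm (6.08 to 9.17). ACOX2, an acyl-CoA oxidase of branched chains and bile acid precursors, was at 6.21, 19.2 and 3.21. ABCD2, which imports very long-chain acyl-CoA into peroxisomes, was at 3.92, 17.6 and 3.94. PDK4, a kinase that shifts cells from glucose to fatty acid use, was the lower gene, at 33.2, 5.99 and 3.12, 5.55-fold below 6 mm in F5 (4.98 to 6.18). In mammals EHHADH and PDK4 are both known targets of PPAR receptors. The part of these receptors in the EHHADH and PDK4 values was not tested.

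**Figure D3:**
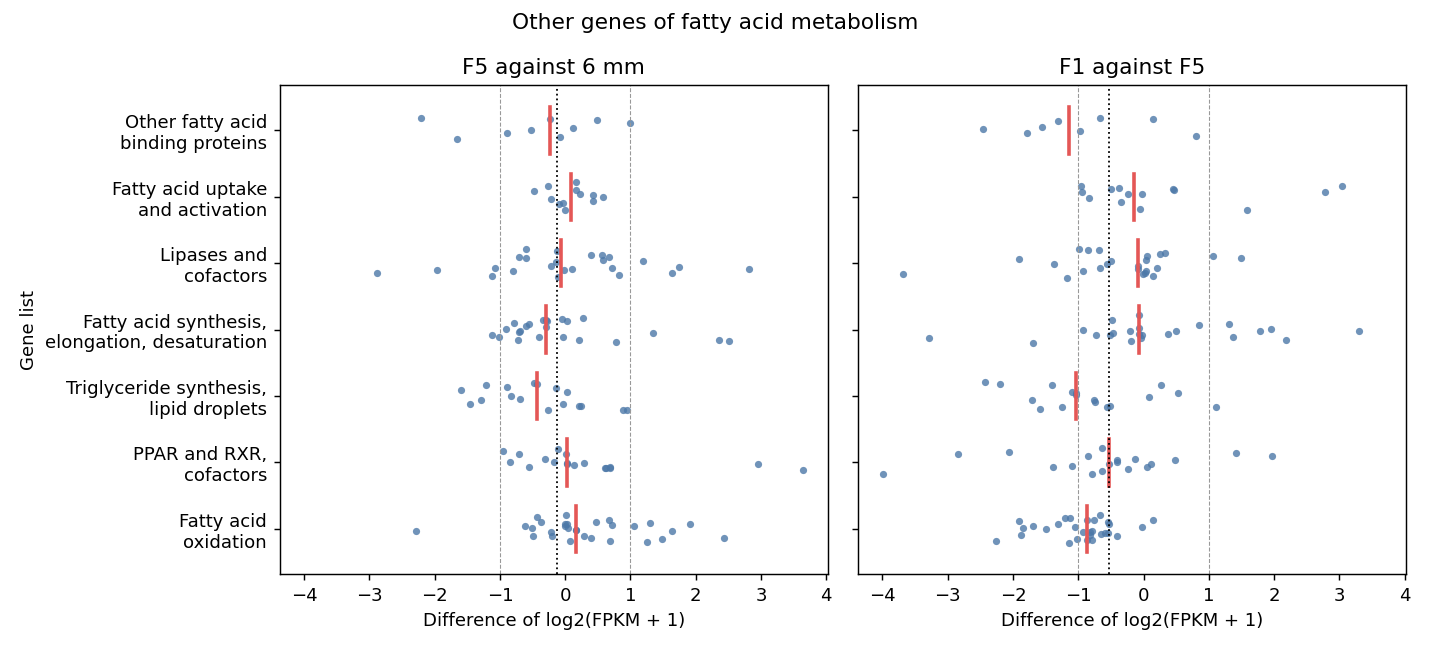
Difference of log2(FPKM + 1) (horizontal axis) of each measured gene in 7 lists of fatty acid metabolism, for F5 against 6 mm (left) and F1 against F5 (right); red bars are list medians, the dotted line the median of all genes and dashed lines mark 2-fold. Oxidation genes had a median of 0.16 and then -0.86, and triglyceride and droplet genes -0.43 and then -1.03.

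Ranked by the height of the F5 peak, the smaller of its differences to 6 mm and to F1, CEL was first and FABP5 second among 12812 genes. Both differences use the same F5 library. CEL, FABP4 and FABP5 were chosen by this F5 pattern, so the ranks are descriptions and carry no test. The heights were 6.32 for CEL and 5.53 for FABP5 on the log2 scale. FABP4 ranked 19th with 3.26 and PPARG 74th with 2.04, while PLIN2 was 930th with 0.64. PRDM16 stood 9th. The 4 leading genes were at least 2-fold above both neighbours with each of the 8 other pseudocounts, scalings and filters tried.

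**Figure D4:**
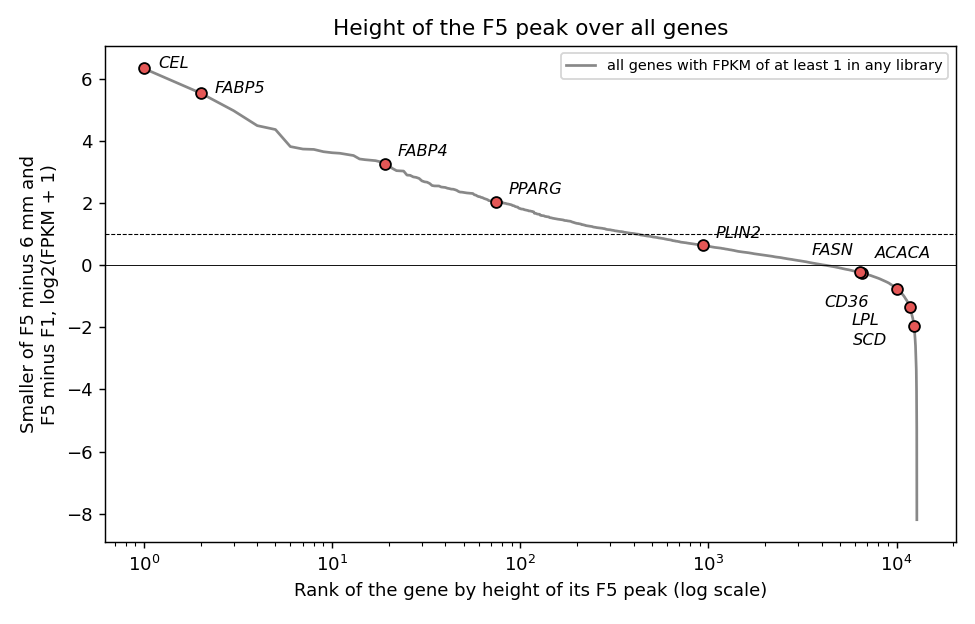
Height of the F5 peak (vertical axis, smaller of F5 minus 6 mm and F5 minus F1 in log2(FPKM + 1)) against the gene's rank (horizontal axis, log scale) over 12812 genes; points mark the 10 genes, the dashed line 2-fold. CEL and FABP5 hold ranks 1 and 2, FABP4 rank 19 and PPARG rank 74, and the points of CD36, LPL, FASN, SCD and ACACA lie below 0. CEL, FABP4 and FABP5 were chosen by this pattern.

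Few genes lay close to the F5 genes in their pattern. CEL, FABP4 and FABP5 were chosen by their F5 levels, and likeness uses those same levels. The numbers of near genes are therefore descriptions only. Likeness was the Euclidean distance between pairs of differences (F5 minus 6 mm and F1 minus F5, in log2 units) over the 3 libraries, among 6311 other named genes that reached an FPKM of 10 in any library. No gene lay within a distance of 1 of CEL or of FABP5. For both the nearest was TMEM72, a membrane protein, at 1.27 in 6 mm, 162 in F5 and 4.20 in F1, with distances of 2.50 and 1.46. CEL was followed by FABP5 and by ENTPD8L, a nucleotidase at 3.79, 184 and 14.7. For FABP5 the next were WNT4, a secreted ligand at 141, 1885 and 14.3, and SPTSSB, a small subunit of the enzyme that starts sphingolipid synthesis, at 0.117, 22.0 and 0. FABP4 had 5 genes within 1, led by DPYSL3, a cytoskeletal regulator (0.51), RSPO3, an enhancer of WNT signalling (0.58), and PHOSPHO1, a phosphatase (0.89). PPARG had 12, led by the potassium channel KCNJ12 (0.33), ALAS1, the first enzyme of haem synthesis (0.46), at 25.4, 246 and 72.8, and C15ORF39 (0.55).

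LPL and SCD, whose differences were smaller, had more genes near them. LPL had 178 genes within 1, the nearest being EPB41L3, a membrane skeleton protein, at 28.6 in 6 mm, 13.5 in F5 and 33.2 in F1 (0.10), then MARCH3 (0.11) and MYL2 (0.14). SCD had 97, with TBC1D24 (0.15), RDH12, a retinol dehydrogenase at 269, 148 and 564 (0.16), and ELOVL7, which elongates fatty acids, at 4.73, 2.54 and 11.2 (0.19). The remaining genes followed common patterns, with 2503 genes within 1 of PLIN2, 3041 of FASN and 4057 of ACACA. Among the nearest were PPP6R2 and TOR2A for PLIN2, USP38, EMC3 and VPS53 for FASN, and NF2 and AGK for ACACA. CD36, at its low level, had 3079 within 1, led by NUP88, NME6 and KCTD10.

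**Figure D5:**
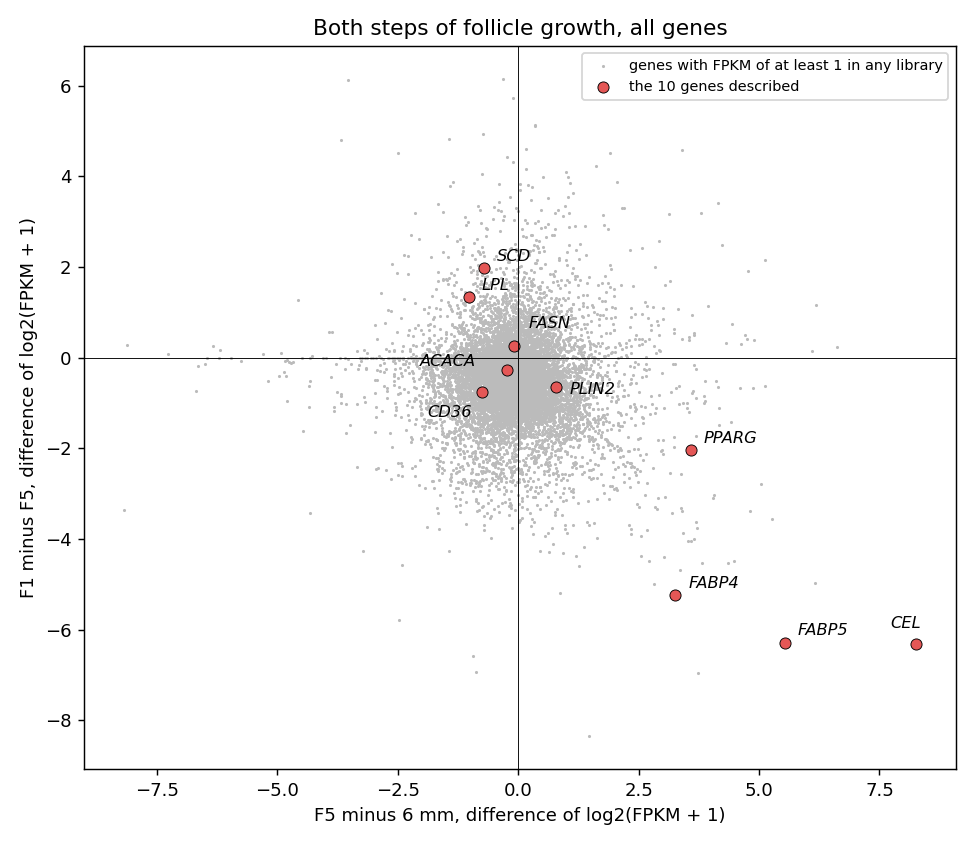
Differences of log2(FPKM + 1) for F5 minus 6 mm (horizontal axis) and F1 minus F5 (vertical axis); grey points are the 12812 genes that reached an FPKM of 1 in any library and red points the 10 genes. CEL (8.26 and -6.32), FABP5 (5.53 and -6.28) and FABP4 (3.26 and -5.25) lie at the lower right, LPL and SCD at the upper left of the centre.

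The balance of all genes depended on scaling, which bears on the steps into F1. As deposited, 599 genes were higher and 2697 lower in F1 than in F5, and after median-ratio scaling 1272 and 1369. For F1 against 6 mm the counts went from 930 and 4100 to 1920 and 2156, and for F5 against 6 mm from 964 and 1356 to 760 and 1861 when every library was brought to a common sum. The median over all genes went from -0.53 to 0.02 in F1 against F5 under median-ratio scaling, and from -0.64 to 0.03 in F1 against 6 mm. With that scaling PLIN2 came to -0.03 in F1 against F5, and ACACA turned from -0.27 to 0.33, whereas CEL, FABP4, FABP5, PPARG, LPL and SCD kept their directions in that step. Of the list medians for that step, those of uptake, lipases, synthesis and PPAR cofactors turned positive with median-ratio scaling, at 0.44, 0.34, 0.52 and 0.06, and those of other binding proteins, triglyceride synthesis and oxidation stayed negative at -0.58, -0.43 and -0.26. From 6 mm to F5 the medians of uptake, lipases and PPAR cofactors lay near 0 and changed sign between scalings, with ranges of -0.11 to 0.19, -0.25 to 0.05 and -0.17 to 0.14 over the 8 alternatives.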

How the data were processed

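RNA of granulosa cells was sequenced in 3 libraries, 1 per stage, from messenger RNA enriched by poly-A tails, per the labels' protocols. Per the submitters' processing notes, TopHat2 version 2.0.12 and HTSeq version 0.6.1 were used. The genome build, the use of strand and the handling of reads shared by related genes are not given in the sources used here. The authors deposited FPKM values for 19309 genes, and 2 lines per file without a value were not used. Symbols came from the name column (11950 genes), a single RefSeq synonym of assembly GRCg7b (551) or the KEGG column (380), and for a symbol with several entries the one with the highest mean FPKM was taken.

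Every FPKM was a whole read number over a whole length and library total (largest relative deviation 5.11e-15). The smallest whole numbers were taken as reads. Over all genes they amount to 94.7%, 93.8% and 94.8% of the library totals, and intervals are slightly wide, and the read numbers given are minima. Differences are of log2(FPKM + 1) over genes that reached an FPKM of 1 in either library, and folds are ratios of FPKM. No test was possible, since each stage had 1 library. The members and lists were chosen with earlier results of these data known. Named besides the 10 genes were up to 4 genes per list with the largest step at an FPKM of at least 10, the 3 nearest patterns per gene (some are not reported here), and neighbours of FABP4 and FABP5. Neighbours of CEL, the protein families and genes marked so were added after values were seen. The cell markers FOXL2, C1QA, C1QB, CSF1R, CDH5, ADIPOQ and PLIN1 fall outside the rule for named genes and are examples only. Scripts used Python 3.11.15, numpy 2.4.6, pandas 2.3.3 and scipy 1.17.1, and were tested on simulated data.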

Additional observations from a re-analysis of the deposited data

How the results depend on the processing

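Of the 16 differences of at least 2-fold among the 10 genes over the 3 comparisons, 16 kept their sign under each alternative (pseudocounts of 0.1 and 5, 4 scalings, no filter or one at an FPKM of 5, and summed entries), and 10 stayed at least 2-fold under each. With a pseudocount of 5, genes at least 2-fold higher and lower were 482 and 456 in F5 against 6 mm, 329 and 1095 in F1 against F5, and 585 and 1788 in F1 against 6 mm, and genes with an F5 peak were 170 (624 at a pseudocount of 0.1, against 411). Median-ratio scaling gave 1272 and 1369 in F1 against F5 and 1920 and 2156 in F1 against 6 mm, upper-quartile scaling 952 and 1677 in F1 against F5, and the filter at 5 gave 834 lower in F5 against 6 mm. Of the 10 genes, those lower in F5 than in 6 mm (1) became 2 at a pseudocount of 0.1 and 0 at a pseudocount of 5 or with median-ratio scaling. Between F1 and 6 mm, 3 higher became 1 and 2 lower became 0 at a pseudocount of 5, 2 lower became 0 with the filter at 5, and a pseudocount acts on low values by construction. Other causes were not tested. Depth limits FABP4 and CD36 in F1, which rest on 1 and 2 reads. No paired analysis was possible because each stage had 1 library. Promoter motifs, though planned, were not analysed here.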
